A study of Mus musculus with 11 samples.

Results

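The comparison asks what an shRNA against c-Fos does to open chromatin of the dentate gyrus at E1. The labels do not spell out E0 and E1; the lists of E0 carry the word Sham, and the study is on neuronal activation, so E0 is read here as unstimulated and E1 as stimulated. The comparison uses 5 of the 11 libraries of the study, all those labelled E1: 3 of shRNA-Ctrl E1 and 2 of shRNA-cFos E1. Every mouse of either group was an adult C57BL/6 animal 8 weeks old, and the dentate gyrus had been infected with an adeno-associated virus (AAV) and dissected under a microscope. The virus carried shRNA-Ctrl, the control, in the first group and shRNA-cFos in the second, so the controls had virus and stimulation too. Each library came from 1 mouse. The 6 libraries of E0, 3 per shRNA, were used as an independent readout. The labels give neither the kind of stimulation nor the promoter or infected cell type. How far c-Fos fell was not measured by this assay, and the list of open regions could not be checked against marker genes of the dentate gyrus, since no annotation of build mm9 was at hand.

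c-Fos is the product of an immediate-early gene, one that neurons transcribe within minutes of activity. It pairs with Jun proteins to form AP-1, a transcription factor that binds a short palindromic DNA motif, often in enhancers that lie far from promoters. AP-1 can recruit chromatin remodellers and so help to open the sites it binds. Granule cells of the dentate gyrus are sparsely active at rest and induce Fos strongly when driven. ATAC-seq reads open chromatin from where a transposase inserts adapters, and a peak caller lists the stretches where insertions pile up. In bulk tissue, a change in how many cells have a site open and a change within each cell cannot be told apart.

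The deposited lists of the 5 libraries held 35517 to 78377 peaks. The longest were shRNA-Ctrl E1 replicates 1 and 3, which are also the only lists of the series whose names lack an added word, so these properties cannot be told apart. Because the depth is unknown, every list was shortened to its 35474 highest-scoring peaks on chromosomes 1 to 19 and X. This kept 45.3% and 46.7% of those long lists, 100% of shRNA-Ctrl E1 replicate 2, and 73.5% and 87.3% of shRNA-cFos E1 replicates 1 and 2. Merging gave 59783 regions with a total length of 46.4 Mb. All 5 lists held 18606 of them (31.1%), named shared regions below, and 19040 (31.8%) were in 1 list alone. A score percentile gives the rank of a region's best peak within its own list, with 100 for the highest score.

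Strong open chromatin was common to both shRNAs. Of the regions with a top-10% score in a library, between 99.1% and 99.8% were shared by all 5 libraries. Score ranks over the shared regions correlated at a Spearman rho of 0.845 between the shRNA-cFos libraries. They correlated at 0.747 to 0.821 among the 3 shRNA-Ctrl pairs and at 0.734 to 0.815 among the 6 pairs across shRNAs. These are correlations across regions of the same tissue, which are not independent replicates. shRNA-Ctrl E1 replicate 3 thus resembled both shRNA-cFos libraries (0.815 and 0.806) more than it resembled shRNA-Ctrl E1 replicate 2 (0.747).

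No shared region passed the test for a difference in score percentile between the shRNAs. limma called 0 of 18606 regions higher (0%) and 0 lower (0%) at an adjusted p under 0.05, with 0.740 as the smallest adjusted p. At an unadjusted p under 0.05 it found 486 higher (2.61%) and 733 lower (3.94%) with the c-Fos shRNA. On normal scores of the ranks limma passed 1 region, described with the loci below, and with shRNA-Ctrl E1 replicate 2 as the lone control it passed 77, all higher. The median standard error of a difference was 10.6 percentile points, and 90% of differences lay between -21.9 and 23.0 points. Both shRNA-cFos libraries ranked a region above all 3 shRNA-Ctrl libraries in 2424 cases (13%) and below all 3 in 2083 cases (11.2%). With the lists as deposited these counts were 660 higher and 3877 lower of 23098 shared regions, so their balance rests on the equal length. The 5 libraries split into 2 and 3 in 10 ways. With no effect of the shRNA, each direction would thus hold a share of about 0.1. Of the 2424 and 2083, 318 were higher and 344 lower by at least 30 points, and 14 and 26 by at least 50 points.

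The 2083 regions that ranked lower with the c-Fos shRNA had a median width of 842 bp, against 1013 bp over all shared regions. Of these 2083, 313 had no peak in the shortened E0 lists, against 1481 of all 18606 shared regions (7.96%). A region's width is that of the merged peaks of all 5 lists. The 10 with the largest differences were 559 to 753 bp wide. Their mean percentile was 66.2 to 85.6 in shRNA-Ctrl E1 and 5.23 to 19.1 in shRNA-cFos E1, and 5 of the 10 had a peak in no E0 list. The largest difference lay at chr2:50648974-50649696, a region of 723 bp. It scored at percentiles 89.8, 80.1 and 86.9 in shRNA-Ctrl E1 replicates 1 to 3 and at 18.04 and 10.7 in shRNA-cFos E1 replicates 1 and 2. All 3 control libraries thus placed it high among their peaks, both knockdown libraries placed it near the bottom, and no shortened E0 list held it. The difference was -71.2 points (95% interval -97.2 to -45.2, limma adjusted p = 0.740). The interval is not adjusted for the choice of this region as the largest difference.

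At chr12:105494486-105495238 the percentiles were 85.9, 59.1 and 79.2 in shRNA-Ctrl E1 against 5.62 and 4.84 in shRNA-cFos E1. At chr16:48472780-48473401 they were 87.8, 66.6 and 75.4 against 20.7 and 6.25. The first had no peak in the shortened E0 lists, and the second had one in 1 shRNA-cFos E0 library, at percentile 1.89. In both, shRNA-Ctrl E1 replicate 2 was the lowest of the controls and still far above the knockdown libraries. Regions at chr3:34232374-34233054, chr12:10278762-10279320 and chr14:99637630-99638287 also lacked any peak in the shortened E0 lists. By selection, all controls ranked these above both knockdown libraries. Of these, the chromosome 14 region scored 87.4, 61.9 and 66.0 in the controls and 0.0113 and 29.7 in the knockdown.

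Others of the 10 were open at E0 as well. The region at chr3:9373754-9374427 scored 86.6, 70.0 and 80.6 in shRNA-Ctrl E1 and 24.5 and 13.7 in shRNA-cFos E1, and 5 of the 6 E0 libraries called it. The regions at chr2:169956423-169957118, chr3:54568186-54568869 and chr5:16085057-16085795 were each called in 2 libraries of either shRNA at E0. With the whole lists as deposited, the differences of the 10 were -58.9 to -46.1 points, where they were -71.2 to -56.9 in lists of equal length.

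The 2424 regions that ranked higher with the c-Fos shRNA had a median width of 1145 bp. Of these 2424, 95 had no peak in the shortened E0 lists, against 1481 of all 18606 shared regions (7.96%). The 10 with the largest differences were 701 to 3230 bp wide, scored at a mean percentile of 2.77 to 23.0 in shRNA-Ctrl E1 and 63.4 to 78.3 in shRNA-cFos E1, and 1 of the 10 had a peak in no E0 list. Their differences were 51.5 to 63.4 points in lists of equal length and 24.97 to 35.4 points in the lists as deposited. At chr11:68886488-68887395 the percentiles were 0.319, 7.93 and 0.0592 in shRNA-Ctrl E1 and 65.6 and 66.6 in shRNA-cFos E1. This region lay at the edge of the shortened lists in the controls: in the lists as deposited, replicates 1 and 3 held it at percentiles 54.9 and 53.3. The difference was 63.4 points (95% interval 31.9 to 94.8, limma adjusted p = 0.740). This interval, too, is not adjusted for the choice of the region by its difference.

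The next was chr11:98219206-98220190, at 9.72, 0.777 and 6.27 in the controls and 70.9 and 61.7 in the knockdown, and it was called in 5 of 6 E0 libraries. The regions at chr9:58314917-58315984 and chr1:98768293-98769344 were called in all 6 E0 libraries, with E0 percentiles of 35.1 to 76.3. The E0 lists are shorter, so these are not on the scale of the E1 percentiles. At chr5:122774628-122775619 an E0 peak was seen in 2 shRNA-cFos E0 libraries (46.6 and 35.3) and in no shRNA-Ctrl E0 library. The region at chr11:103067275-103067975, at 0.464, 31.3 and 28.2 against 77.9 and 71.2, was called in no E0 library.

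**Figure D1:**
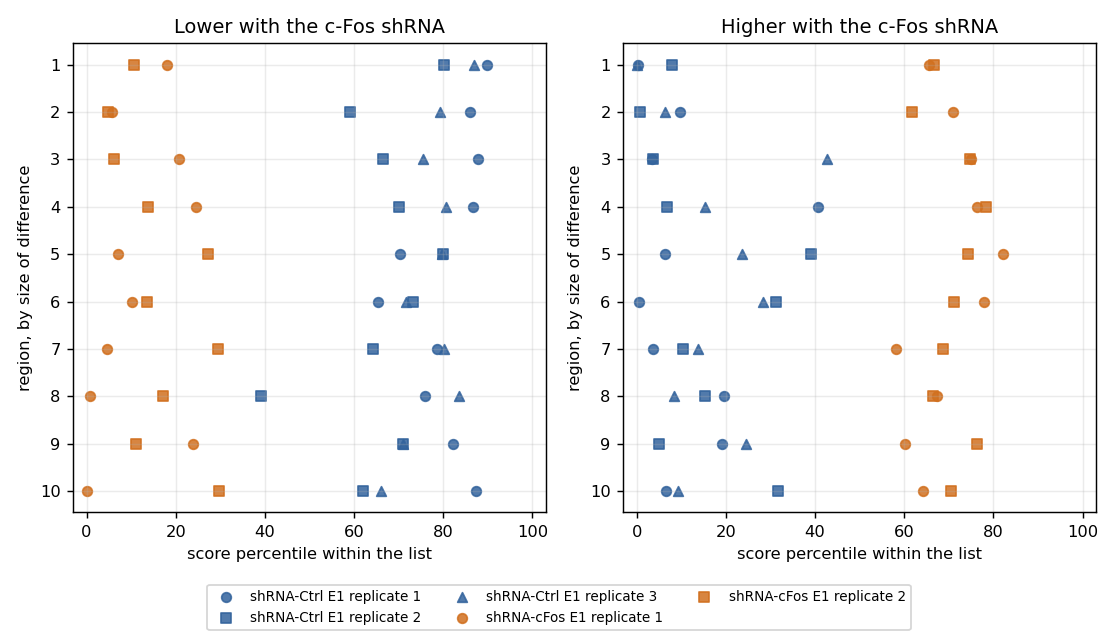
Score percentile within the list (x axis) of the 10 shared regions with the largest non-overlapping difference in each direction (y axis, ordered by size), with 1 point per library. On the left, shRNA-Ctrl E1 libraries (blue) sit at 39.1 to 89.8 and shRNA-cFos E1 libraries (orange) at 0.0113 to 29.7; on the right the order is reversed by selection.

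Over all shared regions, the direction moved with the number of shortened E0 lists that had a peak there. The E0 libraries had no part in choosing shared regions or their percentiles. A call at E0 refers to lists shortened to 25145 peaks; in the whole E0 lists, 548 shared regions had no peak, and their difference was -12.3 points where that of the larger set below was -7.67. Among the 1481 shared regions that no E0 list called, 313 (21.1%) ranked lower in both shRNA-cFos libraries than in all shRNA-Ctrl libraries, and 95 (6.41%) ranked higher. Among the 10581 regions called in all 6 E0 lists, 959 (9.06%) ranked lower and 1490 (14.1%) higher. Over all 18606 the shares were 11.2% and 13%. Regions called in 1 E0 list lay between, with 17.2% lower and 10.9% higher.

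In the regions without an E0 peak, the median percentile was 55.3, 56.5 and 48.6 in shRNA-Ctrl E1 replicates 1 to 3. It was 48.1 and 43.5 in shRNA-cFos E1 replicates 1 and 2. The groups did not overlap, but shRNA-Ctrl E1 replicate 3 lay only just above shRNA-cFos E1 replicate 1. The difference of group means was -7.67 points, from 53.5 ± 4.24 (SD, n = 3) to 45.8 ± 3.24 (SD, n = 2). In regions called in all 6 E0 lists the medians were 82.1, 82.6 and 84.2 against 83.8 and 83.9, so the groups overlapped there.

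Regions without an E0 peak scored lower in general, and the split was therefore also read within bands of the mean percentile. In the band from 40 to 60, 20.9% of 681 regions without an E0 peak ranked lower and 6.75% higher with the c-Fos shRNA. In the same band 7.52% of the 1237 regions called in all 6 E0 lists ranked lower and 17.8% higher. From 60 to 80 the shares were 29.8% lower and 6.09% higher without an E0 peak (312 regions), against 8.26% and 14.7% (3365 regions). With any 1 of the 5 libraries left out, the share of regions without an E0 peak that ranked lower was 24.2% to 40.5% and the share that ranked higher 9.07% to 16.6%. In the regions called in all 6 E0 lists the order was the other way round with each library left out, at 14.2% to 20.2% lower and 18.6% to 28.4% higher. These shares are larger since fewer libraries then have to be in order. This is a description of 5 mice: no value here was tested, and the regions were split after their values were seen.

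**Figure D2:**
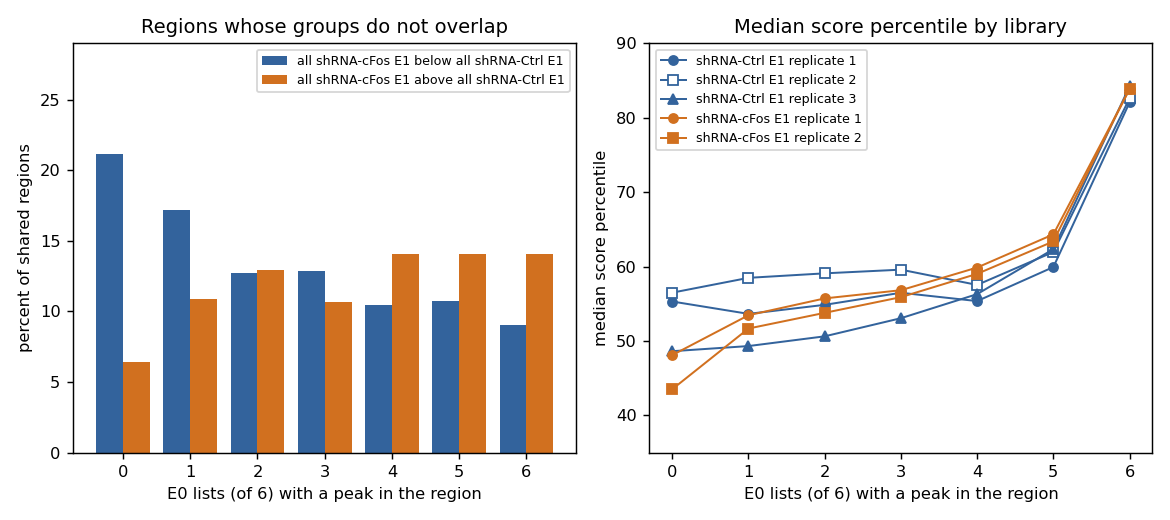
Shared regions grouped by how many of the 6 E0 lists have a peak there (x axis). Left, percent of regions whose shRNA-cFos E1 percentiles lie all below (blue) or all above (orange) those of shRNA-Ctrl E1, from 21.1% and 6.41% with no E0 peak to 9.06% and 14.1% with a peak in all 6; right, median score percentile in each library.

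Presence or absence gave smaller sets. In lists of equal length, 955 regions (1.6% of 59783) had a peak in every control list and in no knockdown list. The opposite held for 1496 regions (2.5%), where only 2 calls are needed. With the lists as deposited the balance turned round, to 2061 and 700. Without shRNA-Ctrl E1 replicate 2 the counts were 2946 and 2537, without replicate 1 they were 1522 and 2041, and without replicate 3 they were 1793 and 2346. They were 2372 and 5892 without shRNA-cFos E1 replicate 1, and 1792 and 4611 without its replicate 2. Another 1987 regions were called in shRNA-Ctrl E1 replicates 1 and 3 alone, more than in both shRNA-cFos libraries alone. Sets of 3 libraries that mix the shRNAs held 342 to 1038 regions each, beside the 955. The largest was shRNA-Ctrl E1 replicate 2 with both shRNA-cFos libraries. The next, with 944, was shRNA-Ctrl E1 replicates 1 and 3 with shRNA-cFos E1 replicate 1.

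Regions found in 1 group only mostly lay in the lower part of the lists. Their mean percentile had a median of 33.3 for shRNA-Ctrl E1 and 26.1 for shRNA-cFos E1, and exceeded 75 in 2 and 0 regions. Median width was 543 bp and 629 bp, against 534 bp for all regions not shared and 1013 bp for shared regions. They lay a median of 39.5 kb and 33.9 kb from the nearest shared region, beside 36.7 kb for all regions not shared. Many were near the limit of calling in the other group. In the lists as deposited, 118 of the 955 (12.4%) had a peak in shRNA-cFos E1 replicate 2 and 400 (41.9%) in replicate 1, while 493 (51.6%) had none in either. Of the 1496, 919 (61.4%) had a peak in the whole list of shRNA-Ctrl E1 replicate 1 and 987 (66.0%) in that of replicate 3. The list of replicate 2 is not shortened and had none by definition. This left 261 (17.4%) with no peak in any shRNA-Ctrl E1 list.

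Read in the E0 libraries, both sets leaned towards the shRNA in which they were found. The 955 regions of shRNA-Ctrl E1 had a peak in 16.6%, 19.9% and 20.4% of cases in shRNA-Ctrl E0 replicates 1 to 3, and in 14.5%, 13.6% and 15.1% in shRNA-cFos E0 (95% Wilson intervals between 11.6% and 23.1%, counting error only). The 1496 regions of shRNA-cFos E1 had a peak in 20.3%, 19.7% and 19.5% in shRNA-Ctrl E0 and in 28.3%, 31.7% and 27.7% in shRNA-cFos E0 (intervals between 17.5% and 34.1%). All libraries of 1 shRNA lay above all of the other in each set. The differences were -4.61 and 9.47 points (two-sided exact permutation p = 0.1 for each, the smallest that 3 against 3 allow; adjusted over 3 tests p = 0.15). Over all 59783 regions the shRNA-cFos E0 libraries also called slightly more, 38.1% ± 1.19 (SD, n = 3) against 36.0% ± 1.28 (SD, n = 3), a difference of 2.09 points (exact permutation p = 0.2). No E0 library called 552 (57.8%) of the 955 regions and 577 (38.6%) of the 1496.

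**Figure D3:**
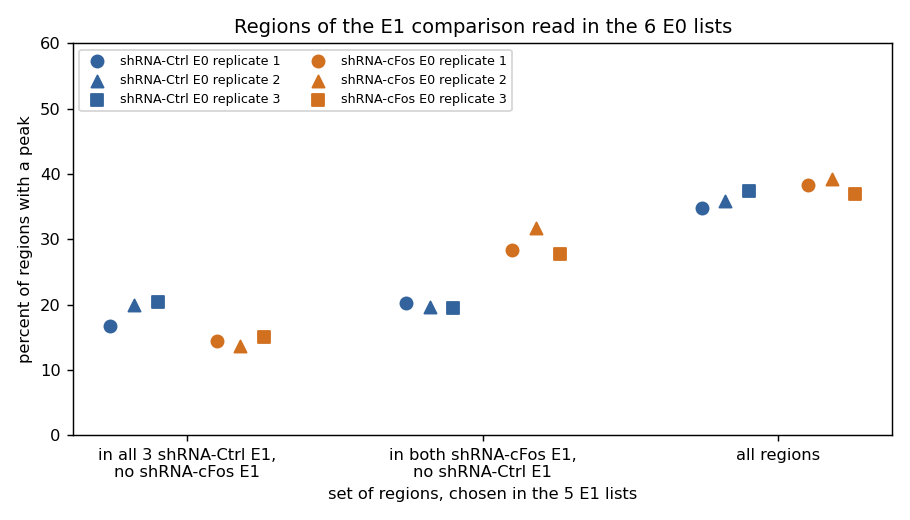
Percent of regions with a peak (y axis) in each of the 6 E0 libraries for 3 sets of regions defined in the E1 lists (x axis), with shRNA-Ctrl E0 in blue and shRNA-cFos E0 in orange. Regions only in shRNA-Ctrl E1 lie at 16.6% to 20.4% in shRNA-Ctrl E0 and 13.6% to 15.1% in shRNA-cFos E0; regions only in shRNA-cFos E1 lie at 19.5% to 20.3% and 27.7% to 31.7%.

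The strongest regions found in the controls alone were of 2 kinds. The first were broad regions that were also open at E0. The region chr6:47633596-47637092 (3497 bp) scored at 56.3, 89.0 and 91.5 in shRNA-Ctrl E1, had no peak in either whole shRNA-cFos E1 list, and at E0 had a peak in 2 control lists and 1 knockdown list at 85.1 to 90.3. The region chr4:42961360-42963914 (2555 bp) scored at 83.7, 87.5 and 57.0 and was called in all 6 E0 libraries at 52.2 to 90.8. Both were therefore missing in the 2 knockdown libraries at E1 while an E0 library with the same shRNA had them at a high rank.

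The others of the 10 were compact sites of 531 to 880 bp. The region chr10:23289093-23289758 scored at 83.9, 65.4 and 70.5, chr15:66829792-66830520 at 69.6, 67.6 and 80.2, and chr10:44994123-44994862 at 88.4, 55.3 and 65.0. None of these had a peak in any shortened E0 list or in either whole shRNA-cFos E1 list. The region chr6:106257563-106258111 scored at 81.3, 62.2 and 80.2, with a peak in 1 shRNA-Ctrl E0 library at 17.3. In all of these the control libraries stood well inside their lists. The regions chr4:108897354-108898233, chr14:120151364-120151894 and chr10:16709896-16710623 did have a peak in a whole shRNA-cFos E1 list, the last in both, at 4.85 to 23.2.

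In the opposite direction, chr5:110833868-110835265 (1398 bp) scored at 73.8 and 75.5 in shRNA-cFos E1. It had a peak in no E0 library of the shortened lists and in no whole shRNA-Ctrl E1 list. The regions chr10:84371940-84372797, chr1:72599529-72600312 and chr1:80734092-80734923 likewise had no E0 peak; the first of these was present in the whole lists of shRNA-Ctrl E1 replicates 1 and 3, at 36.6 and 35.03. The region chr3:124720113-124720641 scored at 50.8 and 81.4, and at E0 had a peak in every knockdown list (66.3 to 83.5) and in 1 control list (57.4). The others of the 10 in this direction all had a peak in the whole list of shRNA-Ctrl E1 replicate 1, 3 or both, at 15.0 to 51.2.

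Group-specific regions were scattered. The 955 fell into 743 of 2537 windows of 1 Mb that held any region, 573 of them with a single one, and the 1496 into 1032 windows, 714 with a single one. The window with most regions of shRNA-Ctrl E1 was chr4:65000001-66000000, with 5 of 34 regions, 2 of the 5 without an E0 peak. Windows with 4 were chr2:77000001-78000000 and chr3:144000001-145000000; in the latter all 4 lacked an E0 peak.

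The windows with most regions of shRNA-cFos E1 were the adjoining chrX:121000001-122000000, with 12 of 69 regions, and chrX:120000001-121000000, with 9 of 78. Of these, 0 of the 69 and 1 of the 78 were shared regions. Peak calls in this stretch varied widely between mice of either shRNA. In lists shortened to 25145 peaks, shRNA-Ctrl E0 replicates 1 to 3 held 152, 99 and 65 peaks there and shRNA-cFos E0 held 113, 12 and 111. At E1 shRNA-Ctrl held 2, 51 and 13, and shRNA-cFos held 54 and 70. In lists of 35474 peaks, which defined these regions, the E1 counts were 3, 92 and 20 against 81 and 113. In the whole lists they were 34, 92 and 104 against 130 and 137, and at E0 152, 114 and 83 against 162, 77 and 126. The low values at 25145 peaks, 2, 13 and 12, belong to the 3 longest deposited lists of the series, those of shRNA-Ctrl E1 replicates 1 and 3 and shRNA-cFos E0 replicate 2. In their whole lists these 3 libraries held 34, 104 and 77 peaks in the stretch. The third window, chr8:14000001-15000000, held 6 of 41.

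Peak widths carried a shift of whole libraries, which ranks in lists of equal length cannot show. Median width in lists of equal length was 522, 513 and 621 bp in shRNA-Ctrl E1 replicates 1 to 3 and 672 and 623 bp in shRNA-cFos E1 replicates 1 and 2. The knockdown libraries were the widest, but shRNA-Ctrl E1 replicate 3 lay 2 bp below the lower of them. The ratio was 1.18 (552 ± 59.9 bp, SD, n = 3, against 647.5 ± 34.6 bp, SD, n = 2; two-sided exact permutation p = 0.2, adjusted over 4 tests p = 0.4). The covered length was 22.4, 21.7 and 27.4 Mb against 29.4 and 27.6 Mb (ratio 1.202, exact permutation p = 0.2). In the lists as deposited the covered length was 36.1, 21.7 and 43.4 Mb against 35.4 and 29.9 Mb, a log2 difference of 0.00891. Median width there was 370, 513 and 457 bp against 593 and 588 bp. Among the top 10% of peaks in lists of equal length the median widths were 1111, 1084 and 1302 bp against 1368 and 1330.5 bp. The groups did not overlap, but shRNA-Ctrl E1 replicate 3 lay nearer to both shRNA-cFos libraries than to the other controls. Among the lowest 10% they were 386, 345 and 467 bp against 501 and 440 bp, and there the groups overlapped.

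**Figure D4:**
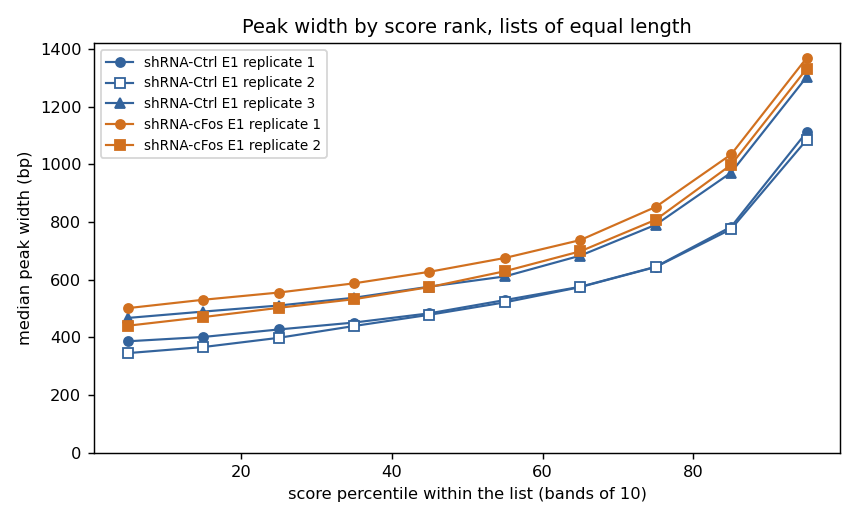
Median peak width in bp (y axis) in bands of 10 score percentiles (x axis) for each of the 5 E1 libraries. Among the highest-scoring 10%, shRNA-Ctrl E1 replicates 1 and 2 sit at 1111 and 1084 bp, apart from shRNA-Ctrl E1 replicate 3 and both shRNA-cFos E1 libraries at 1302 to 1368 bp.

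At the shared regions, the bases covered by a library's peaks were higher in both shRNA-cFos libraries than in all shRNA-Ctrl libraries in 5274 cases (28.3%) and lower in 368 (1.98%). limma called 0 (0%) in either direction at an adjusted p under 0.05 (smallest adjusted p = 0.363), and 1680 wider (9.03%) and 50 narrower (0.269%) at an unadjusted p under 0.05. The median difference was 0.21 on the log2 scale. Once each library's widths were centred on its own median, the split became 1853 wider (9.96%) and 2343 narrower (12.6%). Centring sets the overall balance by construction. An unadjusted p under 0.05 was then found for 638 wider (3.43%) and 434 narrower (2.33%), and 0 regions passed the adjusted test (0% in either direction). With the replicate number as a block, limma called 334 regions at an adjusted p under 0.05, 333 of them wider. In that fit shRNA-Ctrl E1 replicate 3 has no partner of its number and does not enter the difference between shRNAs. Its widths were not centred, so they carry the shift of whole libraries. Each library came from its own animal, and whether libraries of the same number share a batch is not known.

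The regions with the largest width differences were picked from widths that were not centred. At chr4:57311913-57315352 the peaks covered 1172, 549 and 1008 bp in shRNA-Ctrl E1 and 3440 and 2850 bp in shRNA-cFos E1 (3.62-fold; limma adjusted p = 0.363), and all 6 E0 libraries called the region. At chr15:12559556-12564580 they covered 1195, 1358 and 2400 bp against 4823 and 5025 bp, while the score percentile went the other way, with 83.3, 79.2 and 25.99 against 31.5 and 8.08. This is a broad, low stretch in the knockdown libraries where 2 control libraries had shorter peaks of high rank.

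Narrower peaks were seen at chr3:27081475-27083263, with 1761, 1226 and 1760 bp in shRNA-Ctrl E1 and 820 and 697 bp in shRNA-cFos E1 (log2 difference -1.05; limma adjusted p = 0.474). Its score rank hardly moved, at 86.5, 82.0 and 86.9 against 83.8 and 81.0, so the stretch was shorter at a similar rank. At chr9:113701650-113702664 the peaks covered 567, 917 and 1006 bp against 520 and 332 bp, and the percentile was lower too, with 65.9, 86.5 and 73.0 against 27.3 and 40.8. No width of a named region passed the adjusted test.

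Score and width moved together in part. Of the 2424 regions ranked higher with the c-Fos shRNA, 1157 (47.7%) were also wider and 3 (0.124%) narrower in both knockdown libraries. Of the 2083 ranked lower, 146 (7.01%) were narrower and 323 (15.5%) wider. Over all shared regions 28.3% were wider and 1.98% narrower. With centred widths, 559 (23.1%) of the higher-ranked regions were wider and 136 (5.61%) narrower. Of the lower-ranked regions, 616 (29.6%) were then narrower and 86 (4.13%) wider, beside 9.96% wider and 12.6% narrower over all. Both are readouts of the same peaks and not independent evidence.

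The balance of directions varied between chromosomes. The share of shared regions that ranked lower with the c-Fos shRNA ran from 6.69% on chromosome 9 to 14.8% on chromosome 10, and the share that ranked higher from 9.6% on chromosome 3 to 17.7% on chromosome 11. Chromosomes with many genes had fewer lower-ranked and more higher-ranked regions. Over the 20 chromosomes, the density of protein-coding genes (RefSeq, GRCm38.p6, counts per chromosome only) had a Spearman rho of -0.710 with the share ranked lower and 0.567 with the share ranked higher. For regions found in 1 group only, rho was -0.611 for shRNA-Ctrl E1 and 0.605 for shRNA-cFos E1; on chromosome 11, the second densest, the shares were 0.744% and 2.66%. The chromosomes share the same 5 libraries, so these are descriptions. With each library left out in turn, rho with the share ranked lower stayed between -0.786 and -0.577, while that with the share ranked higher fell to 0.209 without shRNA-Ctrl E1 replicate 2 and 0.316 without replicate 1. Base composition, which moves with gene density, could not be read without the mm9 sequence, and its part was not tested.

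**Figure D5:**
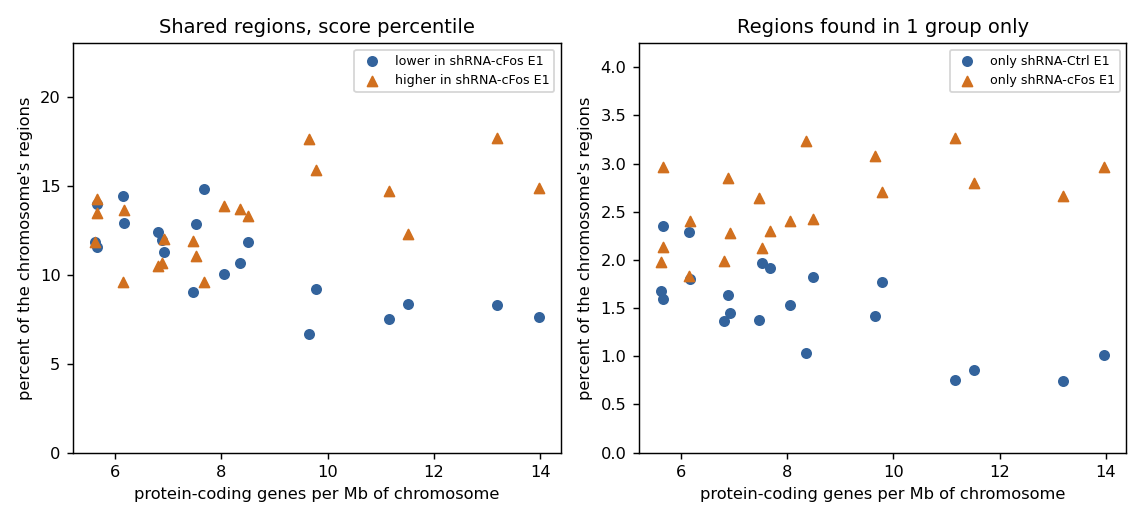
Percent of a chromosome's regions (y axis) that differ in each direction, against its protein-coding genes per Mb (x axis), with 1 point per chromosome and direction. Left, shared regions ranked lower (blue, rho -0.710) or higher (orange, rho 0.567) in shRNA-cFos E1; right, regions found in 1 group only (rho -0.611 for shRNA-Ctrl E1 and 0.605 for shRNA-cFos E1).

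Whether the difference between shRNAs was particular to E1 was tested on all 11 lists, shortened to 25145 peaks. Over the 9716 regions called in all 11, limma called 0 (0%) above and 0 (0%) below 0 for the difference at E1 minus that at E0 (smallest adjusted p = 0.909). An unadjusted p under 0.05 was found for 285 above (2.93%) and 206 below (2.12%). These regions are by definition open at E0 and leave out every region gained at E1. In the E0 libraries, the regions that ranked higher at E1 with the c-Fos shRNA were higher at E0 as well in 849 of 1490 cases (57.0%), and those that ranked lower at E1 were higher at E0 in 411 of 959 (42.9%), against 50.2% of all 10581 regions called in all 6 E0 lists. The median E0 differences were 0.796 and -0.718 percentile points, small beside the E1 differences that chose them.

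A pair of loci passed a test under alternative settings and were named after their values were seen. The region chr8:20018203-20022016 scored at 99.9, 99.6 and 99.2 in shRNA-Ctrl E1 and 87.0 and 93.5 in shRNA-cFos E1. On normal scores of the ranks it was the 1 region past the limma threshold (adjusted p = 0.0281), and the same locus was the 1 region past it in score percentile without shRNA-cFos E1 replicate 2 (limma adjusted p = 0.0499). At E0 it scored at 96.1, 99.5 and 90.9 with shRNA-Ctrl and at 50.7, 99.1 and 97.5 with shRNA-cFos, in the E0 lists of 25145 peaks, and the E0 groups overlapped. The region chr3:123208836-123212693 passed the test of E1 minus E0 when shRNA-cFos E1 replicate 2 was left out (limma adjusted p = 0.00375). It scored at 98.4, 99.5 and 98.6 against 88.4 and 96.0 at E1, in lists of 35474 peaks, and at 96.8 to 98.9 in all 6 E0 libraries in lists of 25145 peaks.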

How the data were processed

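ATAC-seq had been done on dentate gyrus of single mice, and the 5 E1 libraries are compared here. Reads were aligned with Bowtie2 to mm9, per the submitters' processing notes. The deposited values are peak positions and a score per peak, per the file contents from 50 to 3100; the peak names carry the name MACS. Caller settings, read filtering and transposase shifting are not given in the sources used here. No counts come with the lists, so depth is unknown, and the score served only as a rank.

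Peaks on chromosomes 1 to 19 and X were kept, and each list was cut to its 35474 highest scores, the length of the shortest of the 5 (ties in file order). A longer list is cut at a higher score, and the list of shRNA-Ctrl E1 replicate 2 is not cut. Peaks sharing at least 1 bp were merged. Percentiles (best peak) and log2 widths (bases covered) at regions called in all 5 lists were fitted with limma 3.58.1 (mean-variance trend, Benjamini-Hochberg adjustment over all 18606 regions). Library values were compared by two-sided exact permutation, where 2 against 3 allow no p under 0.1. The E0 lists, cut to 25145 peaks, were read at the same regions. A p measures the spread between libraries. Merging, calls and the fit were tested on simulated data. The fit recovered 9% of regions of middle rank moved by 30 percentile points and 63% of those moved by 60 points. It also called 7 unchanged regions. A count of 0 regions past the adjusted p therefore does not exclude differences of these sizes.

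By the naming rule, named regions are the 10 per direction with the largest non-overlapping percentile difference, those past adjusted p 0.05 first, the 5 with the largest width difference, the 10 highest-scoring regions of 1 group only, and the 3 windows of 1 Mb per direction with most of these. Members and lists were chosen with earlier results of these data known. The split by E0 calls, the gene density and the count of peaks in the chromosome X windows were chosen after seeing these values. The RefSeq tables at hand are of GRCm38.p6, so regions carry no gene names or sequences, and the planned gene lists and motifs were not run. Python 3.11.15, numpy 2.4.6, scipy 1.17.1, pandas 2.3.3, matplotlib 3.10.9 and R 4.3.3 were used.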

Additional observations from a re-analysis of the deposited data

How the results depend on the processing

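Limits: 5 mice, unknown depth, lists cut at different scores, and no gene names. Regions past the adjusted p stayed at 0 for score percentile in lists as deposited, in lists cut to the shortest of 11, with a score of at least 100, with peaks within 200 bp merged and with 0 for missing calls. The count was 1 on normal scores, and 77, all higher, in the lists with the added word alone (1 control library against 2, a lone library assumed to vary like the others; chosen after seeing the data). For width it was 0 as deposited, cut to the shortest of 11, with a score of at least 100, with peaks within 200 bp merged and in the lists with the added word, and 334 with the replicate block. That block left the score percentile count at 0 (smallest adjusted p = 0.588) and the test of E1 minus E0 at 0 (smallest adjusted p = 0.884). Deviations of same-numbered libraries in score percentile correlated at 0.0414 and -0.0150. With 2 shRNA-cFos libraries the deviations of one mirror those of the other, and widths were not compared in this way. These values therefore cannot decide whether the libraries are paired.

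Regions only in shRNA-Ctrl E1 and only in shRNA-cFos E1 were 2061 and 700 as deposited, 417 and 614 with a score of at least 100, and 7274 and 4704 in the lists with the added word. Leaving out 1 library gave 1522 to 2946 and 2041 to 5892. With fewer libraries fewer calls are needed, so these counts grow by design. Score percentiles without overlap, higher and lower, were 660 and 3877 as deposited (of 23098 regions) and 1221 and 1085 with a score of at least 100 (of 9920). They were 5783 and 3809 with 0 for missing calls (of 40743) and 8182 and 7793 in the lists with the added word (of 21870). Leaving out 1 library gave 3688 to 5055 and 3217 to 4749 (of 19438 to 20418). Fewer libraries then have to be in order, so larger shares arise without any effect of the shRNA. The same holds for the lists with the added word. Without any 1 control library, 0 regions passed the adjusted p. Widths without overlap, higher and lower, were 2892 and 170 with a score of at least 100 (of 9920) and 1853 and 2343 when centred (of 18606). In lists cut to the shortest of 11, 245 were lower (of 14026). They were 15113 and 2077 in the lists with the added word (of 21870). Leaving out 1 library gave 6642 to 10650 and 577 to 2201 (of 19438 to 20418), and the same limit on fewer libraries applies. The difference in regions without an E0 peak was -14.8 points as deposited, -12.5 with a score of at least 100, -12.3 with E0 lists uncut, and -10.7 to -5.32 with 1 library left out. The test of E1 minus E0 called 0 to 1 regions with 1 of 11 libraries left out. The choices of 2 control libraries against 2 are those without 1 control library.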
